A study of Mus musculus with 60 samples.

Results

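Liver of obese mice treated with a GIP receptor antibody and GLP-1 peptide conjugate was set directly against liver of untreated obese mice that lack Glp1r in cells marked by Wnt1. The comparison was chosen by library titles: 5 libraries of Glp1rfl/fl mice given mGIPR-Ab/P1 and 5 of Glp1rWnt1-/- mice given vehicle, 10 of the 60 libraries of the series. Of 54343 symbols in the liver table, 10858 reached 1 FPKM (fragments per kilobase of transcript, scaled to library size) in at least 5 of its 15 libraries and were tested. The remaining 5 libraries, Glp1rfl/fl mice given vehicle, entered the fit and are given beside many of the pairs, though not all. All the mice were diet-induced obese, and the labels give no age, strain, dose or length of treatment. The treated mice carry floxed Glp1r alleles and still have the receptor, whereas the knockouts got no conjugate, so genotype and treatment differ at once and cannot be told apart in this contrast. No group here combines the knockout with the conjugate, and the labels do not name the Cre line. Each library is labelled as a separate biological replicate, with no statement of pooling, and the p-values measure the spread between these libraries.

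GLP-1 and GIP are gut hormones released after meals, and their receptors in the brain and gut nerves lower food intake when activated. Liver cells have little or no GLP-1 receptor of their own, so the liver is known mainly to follow changes in feeding, body fat, insulin and pituitary hormones. It makes lipoproteins, bile acids and most plasma proteins, the last through the secretory pathway, in which chaperones of the endoplasmic reticulum fold new proteins. Many mouse liver genes are also set by the rhythm of growth hormone release, which separates male-biased from female-biased genes. In these libraries Glp1r stood at 0.0111 ± 0.0042 FPKM with the conjugate and 0.0311 ± 0.0306 FPKM in the knockout (SD, n = 5 each). Gipr was at or near 0 and Wnt1 was listed at 0 in all 10, so liver RNA checks neither the deletion nor the label.

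Before the genes, the libraries themselves differed. The conjugate libraries held an estimated 31.9 to 35.6 M (mega) fragments and the knockout libraries 44.4 to 52.9 M, without any overlap (exact permutation test, p = 0.00794, or 0.0794 after adjustment over 20 measures), and the vehicle libraries 47.6 to 55.0 M. The number of genes above 0 was 19951 ± 246 against 20846 ± 402. The share of mitochondrially encoded transcripts was 11.4% against 11.3%. Hepatocyte markers, which fit the labelled tissue, were present in every library, with Alb at means of 32501 and 27210 FPKM. Their mean log2 level was 0.263 higher with the conjugate (exact p = 0.0159, adjusted 0.0794). Erythrocyte markers were 0.828 lower on that scale (exact p = 0.0159, adjusted 0.0794). Of 20 library measures, 0 passed an adjusted p of 0.05 by the exact test, and 5 had an unadjusted p under 0.05. The smallest p this test can give is 0.00794. Depth and genes above 0 both had it and stayed at 0.0794 after adjustment, so the count of 0 says little. In bulk tissue fewer cells of a type and less RNA per cell cannot be told apart.

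Of the 10858 genes, 547 (5.04%) passed limma's test at a Benjamini-Hochberg adjusted p under 0.05. With the conjugate, 449 of them (4.14% of the genes tested) were higher and 98 (0.903%) were lower. The rises were mostly small, with a median log2 fold change of 0.27, and the falls larger, with a median of -0.45, while the median of all genes was 0.05. These fold changes are on the log2(FPKM + 1) scale, conjugate minus knockout, which understates changes of low genes. At least 1.5-fold changes made up 63 of the calls, 26 higher and 37 lower. Conjugate and knockout libraries were fully separate for 600 genes (5.53%), among them 316 of the 449 higher and 56 of the 98 lower genes. The vehicle mean lay nearer to the knockout than to the conjugate for 477 of the 547 called genes (87.2%), against 65.1% of all genes tested. Estimated depth also placed vehicle with the knockout and apart from the conjugate, so depth and treatment cannot be told apart in this share.

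**Figure D1:**
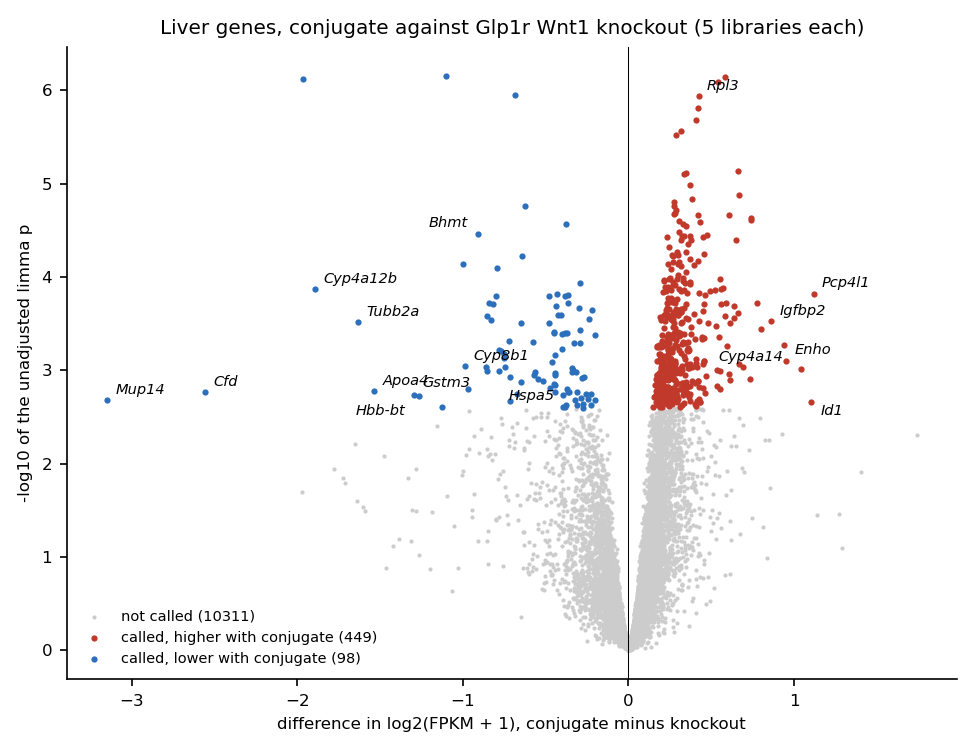
Each point is 1 of 10858 liver genes, by the difference in mean log2(FPKM + 1) between 5 conjugate and 5 knockout libraries (x) and -log10 of the unadjusted limma p (y). The 449 genes called higher crowd close to 0, while the 98 called lower reach from -0.20 to Mup14 at -3.15.

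The number of calls depended on the fit and on single libraries. With only the 10 libraries compared, 66 genes were called, and with the estimated depth as a term none was, with 1058 at an unadjusted p under 0.05. A fit of log2 depth on the 3 groups had an R2 of 0.914, so depth and group cannot be told apart. Median-of-ratios scaling gave 150 higher and 140 lower calls, and quantile normalization 235 higher and 186 lower, so the excess of rises over falls depended on the scaling. Without knockout replicate 1 the split was 353 higher and 191 lower. Without knockout replicate 5 or conjugate replicate 2 the calls numbered 798 and 745, but without knockout replicate 2, 3 or 4 they numbered 190, 267 and 167, and without conjugate replicate 1, 3 or 5 they numbered 182, 135 and 307. All 547 genes kept their sign in each of these fits, other than the one with depth as a term, where 505 did.

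**Figure D2:**
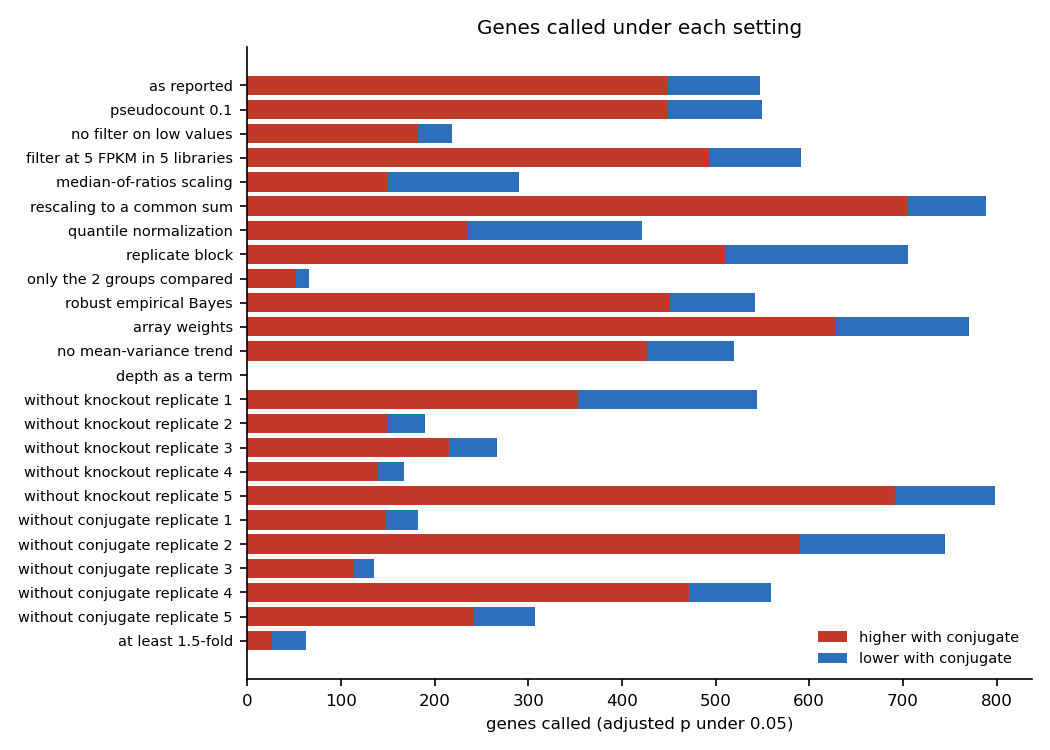
Bars give the number of genes called higher (red) and lower (blue) with the conjugate, at an adjusted p under 0.05, in the reported fit and each alternative. The total runs from 0 with depth as a term to 798 without knockout replicate 5.

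Ribosomal protein genes recurred among the rises. The family was collected by symbol after the calls were seen, so its count is a description. Of 83 genes of cytoplasmic ribosomal proteins, which build the subunits that translate mRNA, 43 rose and none fell, where 4.14% of all genes tested rose. The median log2 fold change was 0.21 against 0.05 for all genes, and 82 of the 83 lay above 0. Rpl3, a large-subunit protein near the catalytic centre, read 162, 144, 167, 138 and 149 FPKM in the conjugate libraries and 110, 119, 106, 115 and 115 FPKM in the knockout libraries. The lowest conjugate library was above the highest knockout library, and the vehicle libraries spanned 120 to 128 FPKM, between both. Rpl3 rose by 0.42 ± 0.05 (SE, adjusted p = 0.00206), and its call held without each of the 10 libraries. Rps28, a small-subunit protein, went from 164 ± 18.2 to 212 ± 12.5 FPKM (vehicle 161 ± 10.4), a log2 fold change of 0.37 ± 0.07 with an adjusted p of 0.0165.

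The shift was small for each gene but shared across the family. Rpl8 stood at 194 ± 1.91 FPKM in the knockout and 235 ± 14 FPKM with the conjugate and rose by 0.27 ± 0.04 (adjusted p = 0.00968). Rplp0, a protein of the ribosomal stalk, was at 208 ± 5.86 against 196 ± 5.97 FPKM and did not pass (adjusted p = 0.189). The family mean per library, centred on all 15 libraries, ran from 0.02 to 0.25 with the conjugate, from -0.13 to 0.01 in the knockout and from -0.11 to -0.002 with vehicle. The conjugate libraries thus lay above all others, and knockout and vehicle libraries overlapped. The median of the family was 0.19 for conjugate minus vehicle and -0.02 for knockout minus vehicle, contrasts that share libraries with the first. Calls in the family numbered 11 under median-of-ratios scaling, 23 under quantile normalization, 21 with no filter, 4 with only the 10 libraries and 0 with depth as a term, where the median was 0.04. Without knockout replicate 1, 2, 3 or 4 they numbered 28, 16, 23 and 14, and without conjugate replicate 1, 3 or 5 they numbered 18, 11 and 18.

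Some genes that build ribosomes rose as well. Of 21 ribosome biogenesis genes 3 rose and none fell, with a median of 0.09, where 4.14% of all genes tested rose. Fbl, the methyltransferase of ribosomal RNA, read 22, 20.1, 22.2, 21.3 and 22.8 FPKM with the conjugate (replicates 1 to 5) and 16.6, 16.9, 17.0, 15.7 and 18.8 FPKM in the knockout. Its groups were separate, and it rose by 0.33 ± 0.05 (adjusted p = 0.00657). Npm1, a nucleolar chaperone, rose by 0.34 ± 0.07 and Ncl, the nucleolin gene, by 0.19 ± 0.05, the last with an adjusted p of 0.0471. The call of Ncl was lost without knockout replicate 1, 2, 3 or 4 and without conjugate replicate 1, 3 or 5, with adjusted p up to 0.116.

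**Figure D3:**
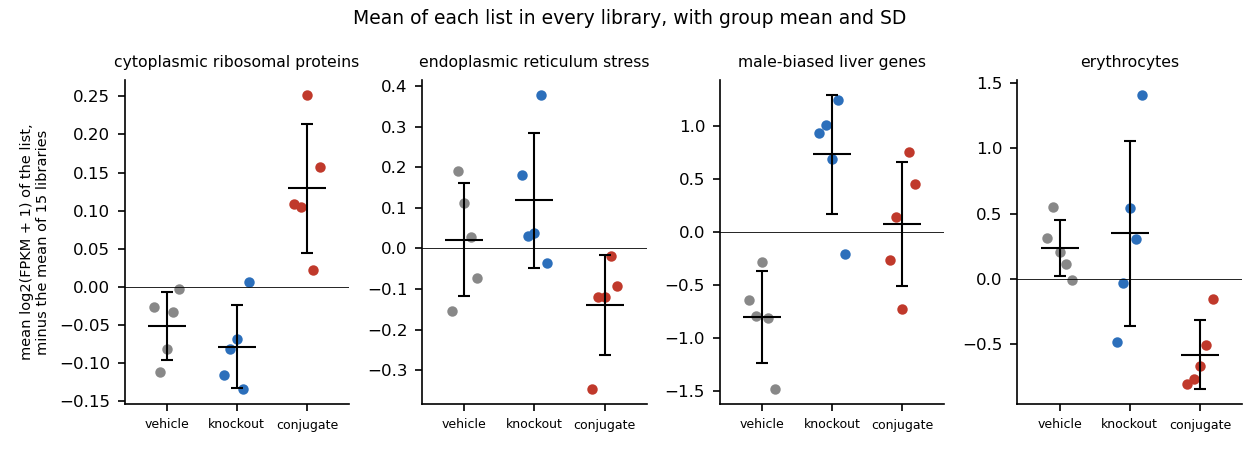
Points are the mean log2(FPKM + 1) of a gene list in each library, minus its mean over 15 libraries, with bars for the group mean and SD over 5 libraries. Ribosomal protein genes are highest in the 5 conjugate libraries, the other lists overlap between conjugate and knockout, and the male-biased list runs from vehicle up to knockout.

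Several chaperone genes of the endoplasmic reticulum fell with the conjugate. Of 21 genes of the response to unfolded proteins in that compartment, 3 fell (Hyou1, Manf and Hspa5), none rose and 18 did not pass. The median log2 fold change was -0.19 against 0.05 for all genes, 19 of the 21 lay below 0, and 0.903% of all genes tested fell. Hspa5 encodes BiP, the main chaperone there, which binds new chains and holds the stress sensors inactive. It read 107, 190, 140, 132 and 134 FPKM with the conjugate and 237, 210, 188, 297 and 175 FPKM in the knockout. Conjugate replicate 2, at 190 FPKM, overlapped the 2 lowest knockout libraries, and vehicle stood at 201 ± 38.0 FPKM. Hspa5 fell by 0.65 ± 0.17 (SE, adjusted p = 0.0378), a call that held only without knockout replicate 5 or conjugate replicate 2 (adjusted p otherwise up to 0.0939).

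Hyou1, a nucleotide exchange factor for BiP, read 14, 23.3, 15.3, 17.4 and 17.9 FPKM against 35, 26.8, 26.3, 46.8 and 22.9 FPKM. Knockout replicate 5 lay just under conjugate replicate 2, and Hyou1 fell by 0.78 ± 0.19 (adjusted p = 0.0337). Manf, a secreted factor that also binds BiP, went from 48.3 ± 11 to 28.1 ± 7.20 FPKM and fell by 0.77 ± 0.18 (adjusted p = 0.0277). Both calls were lost without knockout replicate 2 or 4 and without conjugate replicate 1, 3 or 5, and that of Hyou1 also without knockout replicate 1 or 3 (adjusted p up to 0.0854 for Hyou1 and 0.0683 for Manf). Creld2, another secreted partner of chaperones, was at 13.3 ± 2.22 against 21.3 ± 5.92 FPKM with no overlap, but did not pass (adjusted p = 0.0712). Syvn1, the ubiquitin ligase that clears misfolded proteins, stood at 16.2 ± 2.01 against 21.7 ± 4.01 FPKM, also without overlap (adjusted p = 0.0624). Vehicle for Syvn1 was at 17.5 ± 2.43 FPKM, nearer to the conjugate. Among sensors and other targets, Ern1 was at 0.13, Herpud1 at 0.16, Xbp1 at -0.02 and Atf6 at -0.03 on the log2 scale, none of them called. The list's calls went to 1 without knockout replicate 1 or 3, to 0 with no filter, with only the 10 libraries or with depth as a term, and to 0 without knockout replicate 2 or 4 and without conjugate replicate 1, 3 or 5, and its median ran from -0.25 to -0.14 over all fits without depth as a term.

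Promoters of several of these genes carry the endoplasmic reticulum stress element, the sequence through which the factors ATF6 and NF-Y are known to act. The motif searched was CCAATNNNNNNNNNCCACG on both strands, in RefSeq windows (GRCm38.p6) from 250 bases before to 50 bases after the start of each gene. It was found for 8 of the 18 listed genes that have a window (44.4%) and for 37 of all 27025 genes (0.137%). Among tested genes with a window it was found for 16 of 8435 (0.19%). These shares come from sequence alone and a list chosen for this response, so they say nothing about the libraries. All 8 listed genes with a match had a log2 fold change below 0, with a median of -0.25. The 10 listed genes without a match had a median of -0.19, with 8 below 0. Another 3 listed genes had no window and enter neither median. Manf and Hyou1, called lower at -0.77 and -0.78, are among them, so the medians are not compared. The windows of Hspa5, Creld2, Syvn1 and Pdia6 are printed because these genes had the largest differences among the 8, and Ero1b, an oxidase of disulfide bonds, because it was called lower and, though on no list, carries the motif too. Capitals mark the match, read 5′ to 3′ on the strand where it starts with CCAAT.
Hspa5 at chr2:34772017-34772051, plus strand: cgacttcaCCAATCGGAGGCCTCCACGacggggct
Creld2 at chr15:88819512-88819546, minus strand, opposite to the gene: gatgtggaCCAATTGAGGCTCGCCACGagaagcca
Syvn1 at chr19:6046524-6046558, plus strand: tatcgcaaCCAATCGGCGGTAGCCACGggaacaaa
Pdia6 at chr12:17266483-17266517, plus strand: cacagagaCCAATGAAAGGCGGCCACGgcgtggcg
Ero1b at chr13:12565674-12565708, minus strand, opposite to the gene: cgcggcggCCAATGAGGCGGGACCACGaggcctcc
The stretch between both ends of the motif differs between the genes, while the ends are fixed by the search. Ero1b was at 11.5 ± 1.15 against 15.3 ± 2.71 FPKM and fell by 0.37 ± 0.10 (adjusted p = 0.0474), a call that held only without knockout replicate 5 or conjugate replicate 4. Pdia6, a disulfide isomerase, was at 100 ± 20.6 against 123 ± 12.9 FPKM and did not pass (adjusted p = 0.148). Among all 16 tested genes with the motif, 11 had a log2 fold change below 0, against 3910 of all 10858 genes tested. These 11 include the 8 listed genes already counted and Ero1b, which was picked for its call. Of the others, Alg12 and Acacb were below 0, while Acnat2, Xlr3a, Pan2, Derl3 and Hnrnpa3 were above 0. A match describes the sequence only, since no binding was measured here.

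Male-biased liver genes had their highest mean level in the knockout. Of 17 tested, 2 fell with the conjugate (Cyp4a12b and Ugt2b1), where 0.903% of all genes tested fell, and none rose. The list had a median log2 fold change of -0.51, with 16 of 17 below 0. With depth as a term the median turned to 0.15. Cyp4a12b, a fatty acid omega-hydroxylase of male liver, read 0.853, 2.32, 0.959, 4.99 and 4.59 FPKM with the conjugate and 14.1, 14.4, 7.78, 19.5 and 5.81 FPKM in the knockout. Conjugate and knockout did not overlap, and the vehicle mean of 1.71 ± 0.78 FPKM was close to the conjugate. It fell by 1.89 ± 0.37 (adjusted p = 0.0169), and the call held without each of the 10 libraries. Ugt2b1, which couples steroids and drugs to glucuronic acid, went from 122 ± 22.3 to 84.1 ± 8.63 FPKM. Vehicle stood at 88.5 ± 14.6 FPKM, close to the conjugate, and Ugt2b1 fell by 0.51 ± 0.13 (adjusted p = 0.0377). That call was lost without knockout replicate 1, 2 or 4 and without conjugate replicate 1, 3 or 5, with adjusted p up to 0.0870.

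Mup14, 1 of the major urinary proteins that male mice secrete as pheromone carriers, had the largest fall of the called genes. Its values were 112, 867, 104, 3473 and 1299 FPKM with the conjugate and 4550, 6241, 5732, 9765 and 1605 FPKM in the knockout. Conjugate replicate 4 was above knockout replicate 5, and the vehicle libraries spanned 141 to 710 FPKM, below all knockout libraries. The fall was 3.15 ± 0.85 (adjusted p = 0.0451), and the call was lost without knockout replicate 1, 2, 3 or 4 and without conjugate replicate 1, 3 or 5, with adjusted p up to 0.108. Of 19 Mup genes tested, 1 was called, close to the 5.04% of all genes called, and the family median was -0.91. Reads may be shared among these near-identical copies. Selenbp2 was at 32.1 ± 35.2 against 109 ± 111 FPKM and did not pass (adjusted p = 0.111), with knockout replicate 4 at 301 FPKM. Other male-biased genes were close between the groups: Mup3 at 8927 against 9345 FPKM, Cyp2d9 at 569 against 590 FPKM and Hsd3b5 at 25.9 ± 17.6 against 27.99 ± 21.2 FPKM, with vehicle at 5772, 367 and 1.27 FPKM.

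Female-biased genes had a median above 0, without a call. Of 14 listed, 8 were below the filter, and the 6 tested had a median of 1.05 with none called. The median was 0.07 with no filter on low values and 0.22 with depth as a term. Cyp2b9 read 110, 83.0, 72.5, 59.99 and 45.8 FPKM with the conjugate and 5.45, 8.89, 60.3, 17.1 and 65.3 FPKM in the knockout (adjusted p = 0.0669), with vehicle at 114 ± 26.0 FPKM. Knockout replicates 3 and 5 were within the range of the conjugate libraries. In the growth hormone and IGF axis 1 of 16 genes rose, close to the 4.14% of all genes that did: Igfbp2, which encodes a circulating carrier of insulin-like growth factors. It read 215, 188, 266, 169 and 227 FPKM with the conjugate and 124, 122, 126, 122 and 88.3 FPKM in the knockout. All conjugate libraries were higher, vehicle was at 99.3 ± 31.3 FPKM, and Igfbp2 rose by 0.86 ± 0.18 (adjusted p = 0.0200), a call lost without conjugate replicate 1 or 3, where the adjusted p reached 0.0586.

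**Figure D4:**
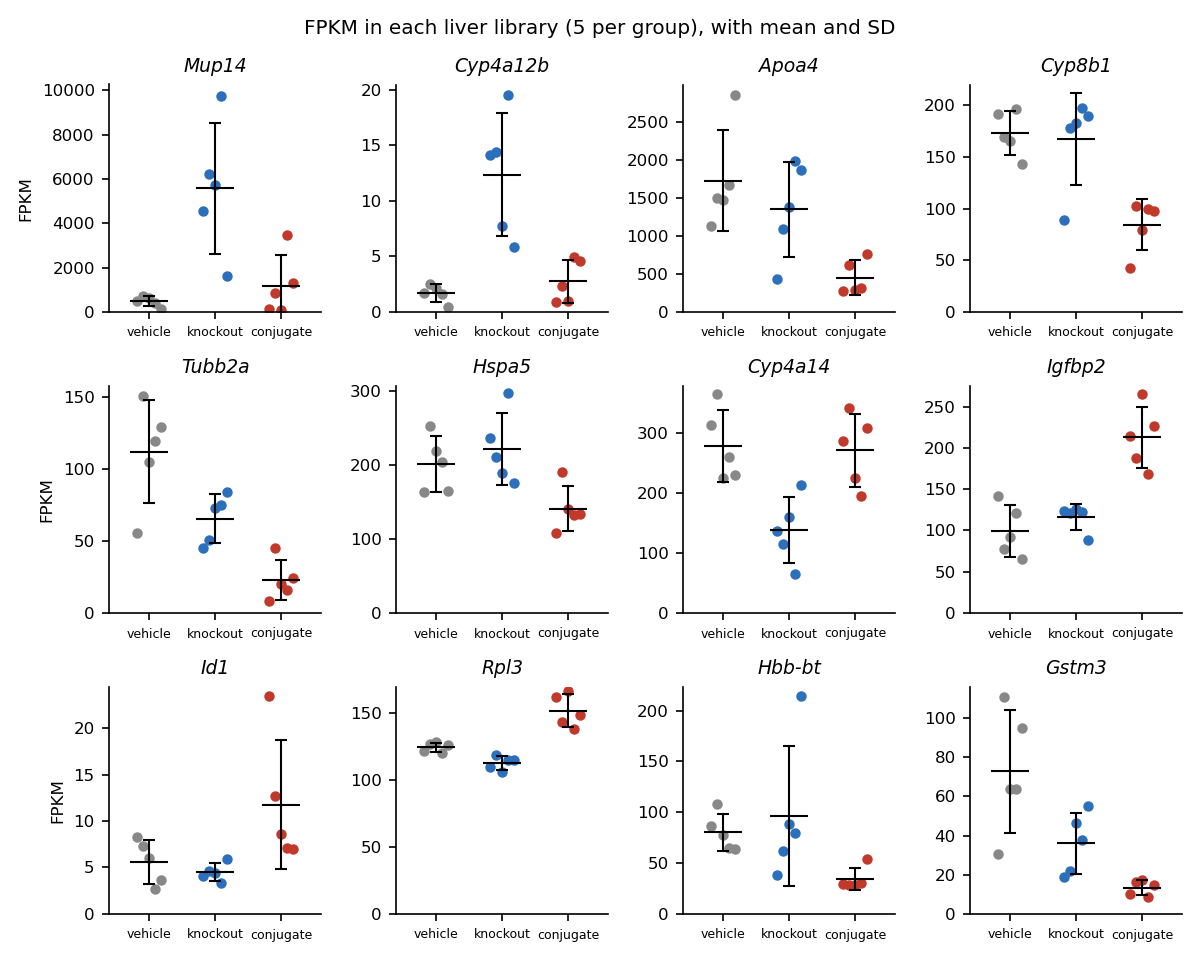
Each panel gives FPKM of 1 gene in 5 vehicle, 5 knockout and 5 conjugate libraries, with bars for mean and SD, on axes that start at 0. Mup14 and Cyp4a12b stand highest in the knockout, Igfbp2 and Rpl3 highest with the conjugate, and Cyp4a14 is lowest in the knockout.

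Sterol and fatty acid synthesis genes had medians below 0 with few calls. Of 25 genes of cholesterol synthesis and uptake 0 were called by limma, with 23 below 0 and a median log2 fold change of -0.22. In this list 4 had an unadjusted p under 0.05, as had 2562 of all 10858 genes tested. Sqle, which encodes squalene epoxidase, read 1.09, 6.23, 1.22, 1.38 and 7.64 FPKM with the conjugate and 2.78, 19.4, 3.71, 7.01 and 13.5 FPKM in the knockout (adjusted p = 0.171). Both groups spread widely and overlapped, and vehicle was at 16.8 ± 6.41 FPKM. Of 15 fatty acid synthesis genes the median was -0.24, and Mlxipl rose while none fell, where 4.14% of all genes tested rose. Mlxipl encodes ChREBP, the glucose-sensing factor that drives lipogenic genes, and went from 86.3 ± 10.4 to 111 ± 10.8 FPKM, a rise of 0.36 ± 0.08 (adjusted p = 0.0271). The call was lost without knockout replicate 2 or 4 and without conjugate replicate 3 or 5 (adjusted p up to 0.0716). Among its known targets, Fasn was at 45.2 ± 16 against 45.8 ± 11.4 FPKM and Acacb at 7.87 ± 3.29 against 11.5 ± 3.70 FPKM, neither called.

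Among 23 genes of triglyceride storage 1 rose and none fell, close to the 4.14% of rises among all genes, with a median of -0.15. Dgat2, which joins the last fatty acid to triglyceride, read 304, 226, 256, 257 and 238 FPKM with the conjugate and 206, 199, 201, 172 and 206 FPKM in the knockout. All conjugate libraries were higher, vehicle was at 213 ± 4.26 FPKM, and Dgat2 rose by 0.37 ± 0.07 (adjusted p = 0.0165). Lipid droplet genes had lower means that did not pass. Cidec, a protein that fuses droplets, was at 12.6 ± 10.4 against 46.0 ± 29.7 FPKM (adjusted p = 0.0981) and Pparg, a lipid-sensing nuclear receptor, at 4.14 ± 1.24 against 7.95 ± 3.50 FPKM (adjusted p = 0.0596).

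Among 30 genes that burn fatty acids or make ketone bodies 4 rose, where 4.14% of all genes tested did, and none fell. The median of the list was 0.01. Cyp4a14, an omega-hydroxylase and a classical target of the fatty acid receptor PPAR-alpha, read 286, 342, 224, 194 and 308 FPKM with the conjugate and 136, 115, 159, 64.3 and 213 FPKM in the knockout. Knockout replicate 5 overlapped conjugate replicate 4, and vehicle stood at 278 ± 59.4 FPKM, level with the conjugate. The rise was 1.05 ± 0.26 (adjusted p = 0.0335), and the call was lost without knockout replicate 2 or 4 and without conjugate replicate 1, 3 or 5 (adjusted p up to 0.0791). Acot1, a cytosolic acyl-CoA thioesterase, went from 13.5 ± 3.22 to 23.5 ± 7.41 FPKM and rose by 0.74 ± 0.19 (adjusted p = 0.0366). Eci2, an enoyl-CoA isomerase, rose by 0.31 ± 0.05 and Acadvl, the very long chain acyl-CoA dehydrogenase, by 0.17 ± 0.04. The calls of Acot1 and Acadvl were lost without 7 and 8 of the 10 libraries in turn, knockout replicates 1 to 4 among them (adjusted p up to 0.0916 and 0.0832). Other targets of the same receptor were not called: Cyp4a10 was at 178 ± 29.5 against 164 ± 42 FPKM and Cpt1a at 106 ± 3.54 against 123 ± 12.2 FPKM.

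In bile acid synthesis and transport 2 of 20 genes rose and 1 fell, with a median of 0.09. Of all genes tested, 4.14% rose and 0.903% fell. Cyp8b1, the sterol 12-alpha-hydroxylase that sets the share of cholic acid, read 42.9, 103, 79.4, 99.8 and 97.4 FPKM with the conjugate and 88.9, 178, 183, 197 and 190 FPKM in the knockout. Knockout replicate 1 alone reached into the conjugate range, and vehicle was at 173 ± 21.4 FPKM. Cyp8b1 fell by 0.99 ± 0.24 (adjusted p = 0.0332), a call lost without knockout replicate 2, 3 or 4 and without conjugate replicate 1 or 3 (adjusted p up to 0.0810). Abcg5 and Abcg8, which form the pump that moves sterols into bile, rose together, by 0.45 ± 0.12 and 0.42 ± 0.11, to 46.3 ± 11 and 40.9 ± 6.88 FPKM. Conjugate replicate 3 was the highest library for both, at 64.9 and 51.2 FPKM, and both calls were lost without it, without conjugate replicate 1 and without knockout replicate 2, 3 or 4 (adjusted p up to 0.0962 for Abcg5 and 0.0870 for Abcg8, the last also lost without conjugate replicate 4).

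Of 20 lipoprotein genes 2 rose and 1 fell, beside 4.14% and 0.903% of all genes tested, with a list median of 0.07. Apoa4, an apolipoprotein whose liver mRNA is known to track triglyceride load, read 279, 621, 285, 311 and 765 FPKM with the conjugate and 430, 1099, 1385, 1986 and 1866 FPKM in the knockout. Knockout replicate 1 overlapped the conjugate libraries, and vehicle reached 1127 to 2867 FPKM. Apoa4 fell by 1.54 ± 0.40 (adjusted p = 0.0424), a call lost without knockout replicate 2, 3, 4 or 5 and without conjugate replicate 1, 3 or 4 (adjusted p up to 0.101). Apom, the carrier of sphingosine-1-phosphate on HDL, rose by 0.49 ± 0.10 (68.0 ± 9.41 to 95.6 ± 8.51 FPKM, adjusted p = 0.0169) and Lcat, which esterifies cholesterol on HDL, by 0.29 ± 0.08, a call lost without knockout replicate 2, 3 or 4 and without conjugate replicate 1, 3 or 4 (adjusted p up to 0.0980). Tubb2a, a tubulin gene, stood at 22.8 ± 13.9 FPKM with the conjugate, 65.6 ± 16.8 in the knockout and 112 ± 35.6 with vehicle, and fell by 1.63 ± 0.35 (adjusted p = 0.0200), a call lost without knockout replicate 4 or conjugate replicate 3 (adjusted p up to 0.0546).

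**Figure D5:**
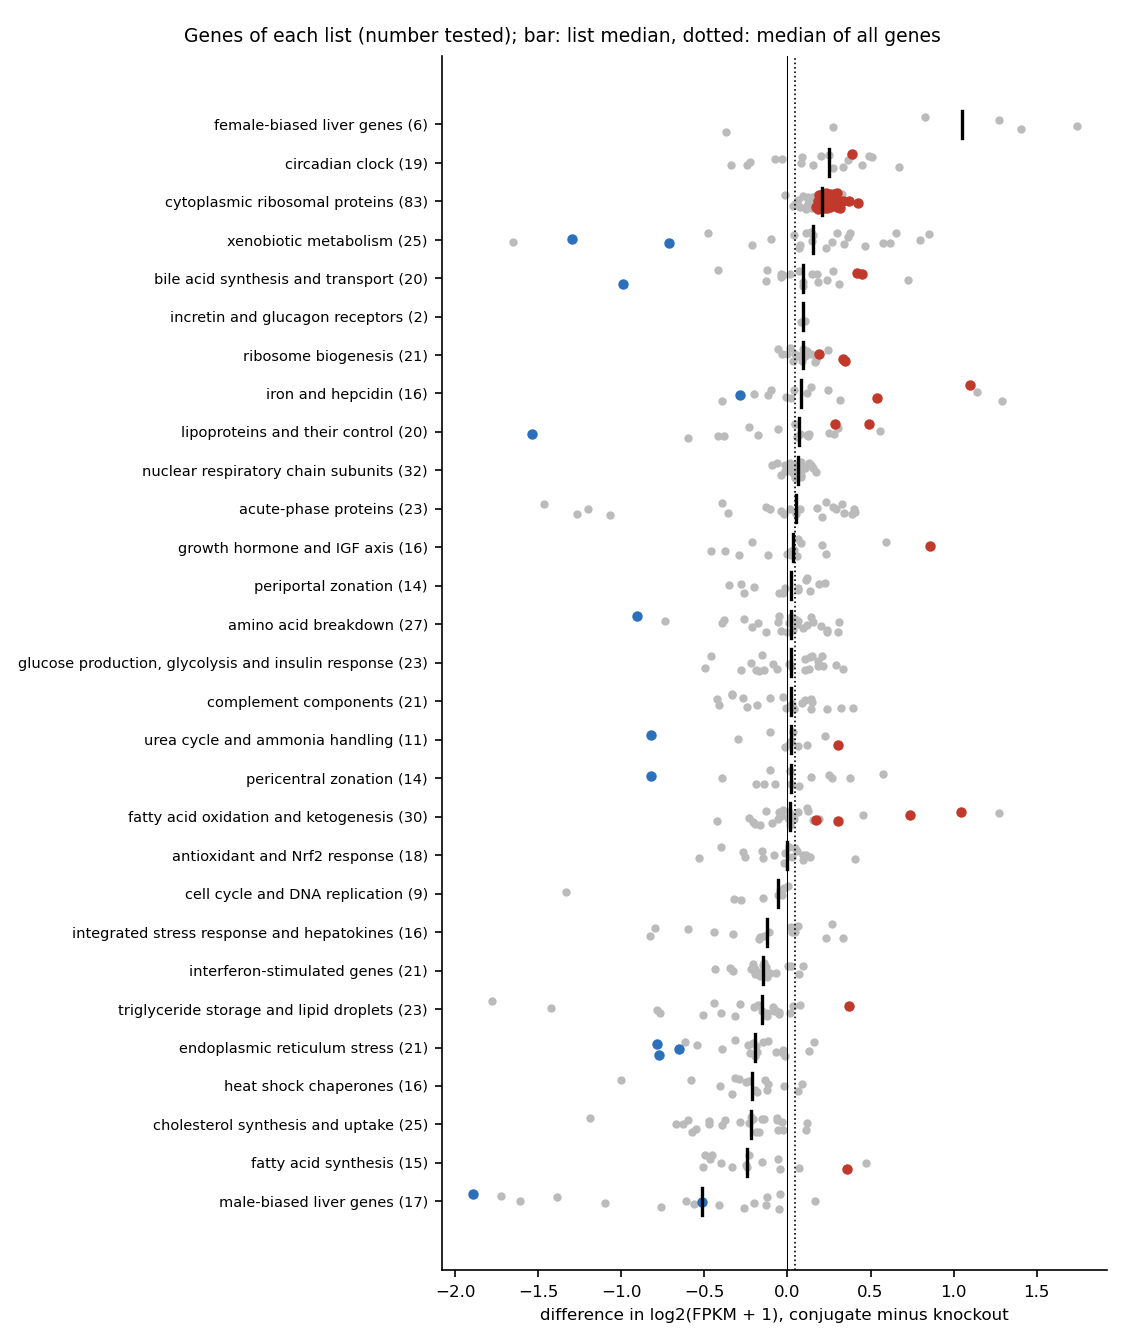
Points are genes of each list by their difference in log2(FPKM + 1), conjugate minus knockout; red genes were called higher, blue lower and grey not called, bars mark list medians and the dotted line the median of all genes. Medians of the lists drawn, which leave out cell type markers, run from -0.51 (male-biased genes) to 1.05 (6 female-biased genes), with ribosomal proteins a tight cluster at 0.21.

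Of 25 xenobiotic genes none rose and 2 fell, both glutathione transferases, where 0.903% of all genes tested fell. The list median was 0.15. Among all 20 Gst genes tested these 2 transferases were the ones called, and the family median was -0.06. Gstm3, a glutathione transferase, read 10.2, 16.2, 17.3, 8.59 and 14.5 FPKM with the conjugate and 18.8, 21.7, 46.3, 37.9 and 55.3 FPKM in the knockout. Every knockout library was above every conjugate library, and vehicle was higher still at 72.7 ± 31.3 FPKM. Gstm3 fell by 1.29 ± 0.34 (adjusted p = 0.0428) and its paralog Gstm2 by 0.71 ± 0.19 (adjusted p = 0.0452), both calls being lost without 8 of the 10 libraries in turn (adjusted p up to 0.101 and 0.103). They held only without knockout replicate 1 or conjugate replicate 2 for Gstm3 and without knockout replicate 4 or conjugate replicate 2 for Gstm2. Cyp1a2, which oxidises caffeine, was at 151 ± 25.8 against 100 ± 10.9 FPKM (adjusted p = 0.0512) and Cyp3a11 at 456 ± 166 against 259 ± 78.0 FPKM (adjusted p = 0.0561), neither called. Cyp2c68, an arachidonate epoxygenase relative on no list, rose from 60.7 ± 11.5 to 95.8 ± 7.65 FPKM (0.67 ± 0.11, adjusted p = 0.00954). Its vehicle level was 87.9 ± 3.97 FPKM, nearer to the conjugate than to the knockout. Reads of Gst and Cyp genes may be shared among close copies.

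In amino acid breakdown 1 of 27 genes fell and none rose, where 0.903% of all genes tested fell. Bhmt, which remethylates homocysteine with betaine, read 740, 1066, 599, 1009 and 735 FPKM with the conjugate and 1755, 1681, 1638, 1393 and 1214 FPKM in the knockout. Every knockout library was higher, and vehicle was at 1418 ± 208 FPKM. Bhmt fell by 0.91 ± 0.16 (adjusted p = 0.0104), a call that held without each of the 10 libraries. In ammonia handling Nags, which makes the activator of the urea cycle, rose by 0.31 ± 0.06 (23.3 ± 1.20 to 29.1 ± 2.56 FPKM), and Rhbg, an ammonium transporter of pericentral cells, fell by 0.82 ± 0.17 (3.27 ± 1.13 to 1.36 ± 0.372 FPKM), a call lost without conjugate replicate 3 (adjusted p = 0.0524).

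Of 16 genes of iron control 2 rose and 1 fell, beside 4.14% and 0.903% of all genes tested, with a list median of 0.08. The risers, Id1 and Smad7, are targets of BMP signalling, the pathway that drives the iron hormone hepcidin. Id1 read 23.4, 12.7, 8.61, 7.07 and 7.04 FPKM with the conjugate and 4.08, 4.59, 4.38, 3.32 and 5.96 FPKM in the knockout. The groups did not overlap, though conjugate replicate 1 was far above the rest, and vehicle stood at 5.59 ± 2.35 FPKM. Id1 rose by 1.10 ± 0.30 (adjusted p = 0.0455) and Smad7, an inhibitor in that pathway, by 0.54 ± 0.14 (adjusted p = 0.0405). Both calls were lost without knockout replicate 2, 3 or 4 and without conjugate replicate 1, 2 or 3, and that of Id1 also without knockout replicate 1 (adjusted p up to 0.104 for Id1 and 0.0929 for Smad7). Hamp, which encodes hepcidin, was at 2492, 1311, 1273, 786 and 816 FPKM against 943, 618, 579, 325 and 467 FPKM and did not pass (adjusted p = 0.177). The upper knockout library overlapped the lower conjugate libraries. Hfe, which helps sense iron, fell by 0.29 ± 0.08 (14.8 ± 1.34 to 11.9 ± 0.992 FPKM, adjusted p = 0.0442), a call that held only without knockout replicate 1 or conjugate replicate 2.

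Several genes of red blood cells fell, beside the lower erythrocyte score given above. Of 6 tested, 3 fell, where 0.903% of all genes tested did, and all 6 had values below 0, with a median of -1.06. Hbb-bt, a beta globin, read 29.2, 28.9, 28.7, 30.5 and 53.9 FPKM with the conjugate and 37.9, 61.6, 88.1, 79.5 and 214 FPKM in the knockout. Conjugate replicate 5 overlapped knockout replicate 1, and vehicle was at 80.2 ± 18.5 FPKM. Hbb-bt fell by 1.27 ± 0.34 (adjusted p = 0.0432) and its near copy Hbb-bs by 1.13 ± 0.31 (adjusted p = 0.0496), and knockout replicate 5 was the highest library for both. Both calls were lost without knockout replicate 2, 3 or 4 and without conjugate replicate 1, 2, 3 or 4 (adjusted p up to 0.0984 and 0.113). Alas2, the first enzyme of heme synthesis in red cells, fell by 0.48 ± 0.10 (52.4 ± 6.32 to 37.3 ± 4.06 FPKM), though vehicle stood at 36.8 ± 4.18 FPKM. The amount of blood left in the tissue was not tested. Cfd, the adipsin gene, fell by 2.56 ± 0.67 (28.9 ± 19.5 to 3.45 ± 3.09 FPKM, adjusted p = 0.0424), with knockout replicate 1 at 2.28 FPKM inside the conjugate range. That call held only without knockout replicate 1 or 5 (adjusted p up to 0.101). Of the 8 adipocyte markers 5 were below the filter and Lep was at 0 throughout. Adrb3, the beta-3 adrenergic receptor of fat cells, went the other way, from 2.15 ± 0.348 to 4.19 ± 1.32 FPKM with no overlap, and rose by 0.69 ± 0.17 (adjusted p = 0.0332). Its call was lost without knockout replicate 2, 3 or 4 and without conjugate replicate 1, 3 or 4 (adjusted p up to 0.0811), and its sign turned with depth as a term. The summed level of that list ran from 5.23 to 19.96 FPKM with the conjugate and 5.07 to 71.7 FPKM in the knockout, and its part in the Cfd value was not tested.

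Of 19 clock genes 1 rose, Hlf, an output factor of the clock, by 0.39 ± 0.10 (10.5 ± 1.43 to 14 ± 1.91 FPKM, adjusted p = 0.0377), a call lost without knockout replicate 1, 2 or 4 and without conjugate replicate 1, 3, 4 or 5 (adjusted p up to 0.0891). One call in the list is close to the 4.14% of rises among all genes. The list median was 0.25, and -0.007 with depth as a term. Usp2 was at 16.2 ± 4.90 against 9.53 ± 1.69 FPKM (adjusted p = 0.0559), and the hour at which tissue was taken is not given. Immediate early genes split. Jun, a subunit of the AP-1 factor, read 4.10, 5.15, 3.77, 3.61 and 4.44 FPKM against 5.24, 9.60, 6.87, 8.78 and 12.8 FPKM. Every knockout library was higher, and Jun fell by 0.85 ± 0.17 (adjusted p = 0.0180), while Ier2, another early gene, rose by 0.35 ± 0.07. The call of Jun was lost without conjugate replicate 3 (adjusted p = 0.0509) and that of Ier2 without it or knockout replicate 2 (up to 0.0542). The mean level of the early gene list was 0.257 lower with the conjugate (exact permutation p = 0.0397, adjusted 0.159), and handling of the tissue was not tested. Among endothelial markers Kdr, a VEGF receptor, rose by 0.41 ± 0.11 (adjusted p = 0.0486), 1 of 11 tested, where 4.14% of all genes tested rose. Its call held only without knockout replicate 5 or conjugate replicate 2.

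By limma's test 0 genes were called in the lists of glucose metabolism (23 tested, 3 at an unadjusted p under 0.05), Nrf2 response (18, 3), heat shock (16, 6), integrated stress response (16, 6), acute phase (23, 4), complement (21, 5), interferon (21, 3), respiratory chain (32, 3) and periportal zonation (14, 1). Over all 10858 genes tested, 2562 had an unadjusted p under 0.05, so such counts are common in this fit. Fgf21, the hepatokine of the integrated stress response, was at 3.01 ± 1.49 against 6.02 ± 2.35 FPKM (adjusted p = 0.0679). Saa2, an acute-phase protein, was at 31.1 ± 12.7 against 89.0 ± 33.3 FPKM with vehicle at a mean of 1185 FPKM (adjusted p = 0.358). The vehicle libraries differed widely. Their acute-phase list mean, centred on all 15 libraries, was 1.41 in replicate 5 and -0.29 to 0.31 in the others. Kupffer cell, macrophage and MHC class II lists had none called and none at an unadjusted p under 0.05, with medians of -0.26, -0.18 and -0.21. The members of these lists with the smallest p, none of them called, are given as means. Among cholesterol genes Msmo1 was at 26.5 against 42.8 FPKM (adjusted p = 0.188), in glucose metabolism Pfkfb1 at 24.1 against 27.6 FPKM (adjusted p = 0.154) and Pcx at 150.5 against 175.6 FPKM (adjusted p = 0.162). In the Nrf2 response Srxn1 was at 10.2 against 15.3 FPKM (adjusted p = 0.0529) and Gpx4 at 226 against 301 FPKM (adjusted p = 0.0977). Heat shock genes Hspb8 and Cryab were at 85.7 against 98.3 FPKM and 2.56 against 3.35 FPKM (adjusted p = 0.0893 and 0.0916). The plasma protein genes Saa4 and Fgb were at 189.7 against 145 FPKM and 938 against 751 FPKM (adjusted p = 0.105 and 0.123), and Mbl2, of complement, at 269 against 318 FPKM (adjusted p = 0.0995). Periportal Cyp2f2 was at 323 against 416 FPKM and Pigr at 362 against 329 FPKM (adjusted p = 0.0972 and 0.285). Respiratory chain genes Sdhd and Cyc1 were at 131 against 116 FPKM and 104 against 93.7 FPKM (adjusted p = 0.0587 and 0.0604), and mt-Nd4l at 3402 against 3844 FPKM (adjusted p = 0.157). The female-biased Hao2 was at 1.58 against 0.403 FPKM (adjusted p = 0.0702), interferon-induced Ifit1 at 1.80 against 2.52 FPKM (adjusted p = 0.152) and the replication gene Mcm2 at 0.764 against 1.21 FPKM (adjusted p = 0.112).

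Among markers of other cells, all uncalled, Cd74 was at 40.8 against 56.4 FPKM, the Kupffer cell genes Marco and Cd5l at 2.16 against 4.25 FPKM and 17.2 against 24.9 FPKM, and the macrophage genes Mmp12 and Ctsd at 0.517 against 1.26 FPKM and 124 against 143 FPKM. Ighm of B cells was at 3.64 against 6.42 FPKM, Ccl5 of T cells at 1.44 against 3.14 FPKM and Spp1 at 23.8 against 31.8 FPKM. The collagens Col4a1 and Col3a1 were at 3.45 against 5.22 FPKM and 4.23 against 9.05 FPKM, and the pancreatic Cela1 at 27.8 against 20.7 FPKM. Their adjusted p by limma ran from 0.145 to 0.679. Syn1, a neuronal gene, was at 0.0778 against 0.111 FPKM and below the filter. Gcgr, the glucagon receptor, was at 121 ± 8.03 against 112 ± 4.50 FPKM and Dpp4, the protease that inactivates incretins, at 22.1 ± 1.39 against 20.9 ± 1.44 FPKM, neither called.

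The remaining large rises were in genes of unrelated roles. Pcp4l1, a small calmodulin-binding protein relative, read 9.80, 4.25, 5.95, 6.55 and 9.38 FPKM with the conjugate and 1.32, 2.54, 3.12, 2.98 and 3.76 FPKM in the knockout. All conjugate libraries were higher, and it had the largest rise of the called genes, 1.12 ± 0.22 (adjusted p = 0.0172). Enho, which encodes the secreted peptide adropin, went from 2.63 ± 1.02 to 6.08 ± 2.18 FPKM (0.95 ± 0.23). Rdh16f2, a retinol dehydrogenase relative, went from 39.2 ± 10.4 to 75.9 ± 22.1 FPKM (0.94 ± 0.21), with vehicle between both at 54.7 ± 10.9 FPKM. Inmt, a methyltransferase for indole amines and thioethers, rose from 228 ± 22 to 366 ± 80.4 FPKM (0.66 ± 0.14), Tk1, thymidine kinase, by 0.80 ± 0.18, Map2k6, a kinase of the p38 pathway, by 0.77 ± 0.16 and Ang, the angiogenin ribonuclease, by 0.67 ± 0.16. Ctcflos, a noncoding transcript, and Ces2c, a carboxylesterase, fell, from 14.4 ± 1.4 to 6.86 ± 1.99 FPKM and from 17.1 ± 5.34 to 8.49 ± 3.43 FPKM. Without conjugate replicate 3 the calls of Enho, Rdh16f2, Tk1, Map2k6, Ang and Ces2c were lost, and without knockout replicate 4 or conjugate replicate 1 those of Enho, Rdh16f2, Inmt, Tk1, Ang and Ces2c, with adjusted p up to 0.0963. Enho and Ces2c were also lost without knockout replicate 3 or conjugate replicate 5, Ces2c and Ang without knockout replicate 2, and Ang without knockout replicate 3 or conjugate replicate 4.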

How the data were processed

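Bulk RNA from liver was measured as stranded poly(A) libraries, per the labels. The deposited values are FPKM, which the authors computed with RSEM, per the submitters' processing notes. For the RSEM version, the aligner, the build and the annotation, nothing is stated (not given in the sources used here). Groups were taken from the library titles.

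Here log2(FPKM + 1) was fitted with limma 3.58.1 in R 4.3.3 (3 groups, 15 libraries, mean-variance trend, two-sided), with Benjamini-Hochberg adjustment over 10858 genes. Errors of fold changes are model SE, those of FPKM are SD. Library measures were compared by exact two-sided permutation over 252 assignments, whose smallest p is 0.00794, and adjusted over 20 measures. Depth was estimated in Python 3.11.15 from the values at 1 fragment of genes with a single transcript, so it is approximate and gives no counting interval.

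The members and the 44 gene lists were chosen with earlier results of these data known. The text names the 12 largest called rises and falls whose higher group mean reached 5 FPKM (gene models without a proper name, such as BC049987, were skipped), up to 4 called genes per list or 2 with the smallest p, and Glp1r, Gipr, Wnt1 and Syn1. These are 98 genes, and 1 more that the rule names is not reported here. Another 27 were chosen after their values were seen (Rpl3, Rps28, Hamp, Creld2, Syvn1, Ero1b, Selenbp2 and those chosen in the closing section), as were further genes that illustrate a list. The fit was tested on simulated data. Alternatives changed the pseudocount, the filter, the scaling, the groups fitted and the variance model, added depth or the replicate number as a term, or left out 1 library. The labels do not say whether equal replicate numbers mark paired libraries, and the reported fit does not pair them.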

Additional observations from a re-analysis of the deposited data

Results flagged for a closer look

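In 20 of 282 groups of 5 tested, 1 library stood apart from the other 4 by Dixon's criterion; chance gives about 1 in 20. Knockout replicate 4 was low for Rdh16f2 (21.7 FPKM) and Dgat2 (172 FPKM) and high for Syvn1 (28.8 FPKM) and Uso1 (30.5 FPKM). Knockout replicate 5 was low for Igfbp2 (88.3 FPKM), and high for Rsad2 (2.70 FPKM), S100a9 (7.48 FPKM) and the neutrophil marker score (1.02). Knockout replicate 1 was low for Cyp8b1 (88.9 FPKM), Erbb3 (18.2 FPKM) and the adipocyte score (0.515), and knockout replicate 3 for Adrb3 (1.56 FPKM). Conjugate replicate 3 was high for Atf3 (0.849 FPKM), Pmp22 (2.69 FPKM) and Erbb3 (27.2 FPKM). Conjugate replicate 5 was high for Hbb-bt (53.9 FPKM), conjugate replicate 1 low for Creld2 (9.54 FPKM) and Bet1 (17.97 FPKM), and conjugate replicate 2 high for Cdkn1a (9.43 FPKM) and low in mitochondrial share (10.5%).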

How the results depend on the processing

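The count of 547 calls became 218 with no filter on low values, 290 with median-of-ratios scaling, 66 with only the 10 libraries compared, 0 with depth as a term, 63 at a 1.5-fold minimum, and 135 to 798 with 1 library left out. With the replicate block it was 705 (510 higher, 195 lower). Replicate numbers gave correlations of 0.002 to 0.214 between libraries, with the best match to the own number for replicates 1 and 4 only. The labels do not say what the number marks, so these correlations cannot settle whether the libraries are paired. With depth as a term these log2 fold changes reversed: Pcp4l1 -0.008, Ugt2b1 0.152, Cyp2b9 -0.570, C1ra -0.130, Cyp3a11 -0.418, Adrb3 -0.153, Pmp22 -0.492, Cdkn1a 0.314 and Dpp4 -0.001. With 1 library left out, H2-Eb1 ran from -0.591 to 0.011 and S100a9 from -0.538 to 0.074 (both highest without knockout replicate 5) and Erbb3 from -0.140 to 0.004 (without knockout replicate 4); mt-Cytb reversed under quantile normalization (0.036). The cause was not tested. Over called genes, depth as a term changed the SE by a median ratio of 2.92 and the log2 fold change by 0.857. Of 20 library measures 0 passed also when lists were summed in FPKM, under the same limit on the smallest p. Over all alternatives, the named called genes kept their call in 1063 comparisons and lost it in 512, 3 of these with a reversed sign.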

Other observations

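Some genes of transport between endoplasmic reticulum and Golgi were among the 98 lower genes. They are given with others that have a different role in the endoplasmic reticulum or make sugars for glycoproteins. All of these were picked after the calls were seen, so their number is no evidence of a theme. Sec22b, a SNARE of vesicles between both compartments, read 13.03, 13.6, 12.4, 12.3 and 12.3 FPKM with the conjugate and 15.3, 14.9, 15.9, 18.1 and 15.1 FPKM in the knockout, and fell by 0.30 ± 0.06 (adjusted p = 0.0190). Every knockout library was higher, and the call was lost without conjugate replicate 3 (adjusted p = 0.0512). Sec24d, a cargo receptor of the vesicle coat, fell by 0.33 ± 0.08 and Hspa13, a chaperone of microsomes, by 0.34 ± 0.08. Uso1, a vesicle tether, fell by 0.37 ± 0.07, Scfd1, a regulator of vesicle fusion, by 0.36 ± 0.07, Bet1, a Golgi SNARE, by 0.40 ± 0.09 and Lrrc59, a ribosome-binding membrane protein, by 0.36 ± 0.09. Slc33a1, the acetyl-CoA importer of the endoplasmic reticulum, fell by 0.29 ± 0.06. Gfpt1 and Pgm3, enzymes that make UDP-GlcNAc for glycoproteins, fell by 0.37 ± 0.10 and 0.65 ± 0.14. The call of Scfd1 held without each of the 10 libraries. That of Uso1 was lost without conjugate replicate 3, those of Bet1 and Pgm3 without it or knockout replicate 4, that of Slc33a1 without it or conjugate replicate 1, and those of Lrrc59 and Gfpt1 without 8 and 7 libraries in turn (adjusted p up to 0.101).

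Of 30 Hnrnp and Srsf splicing genes, collected by symbol after the fact, 9 rose and none fell, with a median of 0.17, where 4.14% of all genes rose and the median was 0.05. Hnrnpl, a splicing repressor, read 33.3, 34.0, 33.8, 31.3 and 32.3 FPKM with the conjugate and 24.7, 24.9, 27.1, 26.4 and 27.9 FPKM in the knockout. Every conjugate library was higher, and it rose by 0.32 ± 0.04 (adjusted p = 0.00322). Srsf5, a serine-rich splicing factor, rose by 0.46 ± 0.11. Mitochondrial ribosomal proteins gave 8 rises and no fall among 78, with a median of 0.05, and proteasome subunits 1 rise among 47, with a median of 0.03.

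The following genes were picked for their calls and stand for no tested group. Of the 11 endothelial markers tested 1 was called, where 5.04% of all genes were, and the list median was 0.12. Epas1, which encodes HIF-2 alpha, went from 31.2 ± 1.48 to 41.7 ± 3.29 FPKM (0.41 ± 0.05, adjusted p = 0.00281) and Vegfa from 43.8 ± 4.49 to 57.9 ± 5.33 FPKM (0.39 ± 0.07, adjusted p = 0.0136). S1pr1, a receptor of endothelial cells, rose by 0.46 ± 0.09 and Gpihbp1, the capillary anchor of lipoprotein lipase, by 0.44 ± 0.10. Bmp2, an endothelial inducer of hepcidin, rose by 0.43 ± 0.12 and Atoh8, a BMP target in hepatocytes, by 0.61 ± 0.15. Smad6 stood at 2.26 ± 0.364 against 1.63 ± 0.419 FPKM and did not pass (adjusted p = 0.0823). The calls of Sec24d, Hspa13, Srsf5, Bmp2 and Atoh8 were lost without 6 to 8 of the 10 libraries in turn and that of Gpihbp1 without 4, conjugate replicates 1 and 3 among them in each case. These genes were chosen after their values were seen. The unnamed model BC049987 had one of the smallest p-values, at 4.97 ± 2.83 against 20.4 ± 2.28 FPKM (adjusted p = 0.00206).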
